A study of Mus musculus with 6 samples.

Results

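The 9 genes described here encode chemokine receptors that are used by regulatory T cells (Tregs): Ccr2, Ccr4, Ccr6, Ccr7, Ccr8, Cxcr3, Cxcr4, Cxcr5 and Cxcr6. They were chosen by gene name among the 47643 reference gene identifiers that each table lists, and all 9 were found. Of these, 8 had at least 1 FPKM (fragments scaled by transcript length and library depth) in 3 or more libraries and so were among the 12186 genes tested. Ccr6 did not reach that level. Cxcr5 reached it in the 3 agonist libraries and in 1 vehicle library, so its place among the tested genes rests mainly on the group in which it was higher.

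The libraries came from natural Tregs (nTregs) of the spleen of C57BL/6 mice of the Foxp3-DTR/EGFP genotype, in which Foxp3, the transcription factor that defines the lineage, is tied to a diphtheria toxin receptor and a green fluorescent protein. Mouse age is not given in the sources used here. All cells were first activated for 2 days with plate-bound antibody to CD3, soluble antibody to CD28 and IL-2. They were then kept for 6 h with 100 nM of an agonist of EP4, a prostaglandin E2 receptor that couples to the stimulatory G protein (EP4 agonist group, 3 libraries), or with DMSO (vehicle group, 3 libraries). GFP-positive cells were sorted after the treatment, so both groups hold activated cells selected for Foxp3 expression, and no library of resting cells was analysed here. Whether a replicate is its own mouse or culture is not in the labels, so every p-value refers to the spread among these libraries, part of which may be technical.

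Chemokine receptors are G protein-coupled receptors that signal mainly through the inhibitory G protein and direct the migration of lymphocytes along gradients of their ligands. CCR7 binds CCL19 and CCL21 and guides cells into the T cell zones of lymph nodes, CXCR5 binds CXCL13 and leads into B cell follicles, and CXCR4 binds CXCL12 of bone marrow and stroma. CCR4 (ligands CCL17 and CCL22), CCR8 (ligand CCL1), CXCR3 (ligands CXCL9 and CXCL10), CXCR6 (ligand CXCL16), CCR6 (ligand CCL20) and CCR2 (ligand CCL2) are receptors of activated and effector cells and of entry into inflamed tissue, skin, mucosa or tumours.

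The depth behind the libraries was 4.32 to 4.99 gigabases of aligned sequence in the agonist group and 4.49 to 5.65 gigabases in the vehicle group. Of 7 Treg and T cell markers, all 7 were tested in these libraries, with a summed FPKM of 2399 to 2500 in agonist libraries and 1889 to 2196 in vehicle libraries, and Foxp3 itself had 135 ± 16.6 and 132 ± 22.05 FPKM (mean ± SD, n = 3 per group). Markers of other spleen cells were low. The 5 B cell markers summed to 3.69 to 5.82 FPKM with the agonist and 5.57 to 5.899 FPKM with vehicle, most of it Cd79b, while the B cell factors Pax5 and Ebf1 did not exceed 0.0126 FPKM. The 6 monocyte and macrophage markers summed to at most 0.521 and 0.845 FPKM, the 5 dendritic cell markers to at most 0.793 and 0.430 FPKM, and of 4 neutrophil markers 3 were listed at 0 in every library. The 4 NK cell markers summed to 0.770 to 4.396 and 0.767 to 2.72 FPKM, the 2 CD8 markers to 4.53 to 6.41 and 3.88 to 5.43 FPKM, and the 4 erythroid and platelet markers to 0.601 to 2.90 and 1.47 to 5.76 FPKM, where Hba-a1 fell with the block, a call that was lost without pair 1, 2 or 3 (limma, adjusted p = 0.0883 to 0.149).

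Differences are given as EP4 agonist minus vehicle on the log2(FPKM + 1) scale, which understates the change of genes with low FPKM, and were tested with limma across all 12186 genes with Benjamini-Hochberg adjustment and a threshold of 0.05. "Rose" and "fell" are used only for genes that passed this test. Libraries of both groups carry numbers 1 to 3, and those with the same number deviated together, so each result is also given from a fit with the replicate number as a block where that changes the call. In bulk RNA, a lower level may reflect fewer cells with the transcript or less transcript per cell, and these cannot be told apart.

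After 6 h of EP4 agonist, transcripts of Ccr8 and Ccr4, receptors associated with effector and tumour Tregs, were higher than with vehicle in each of 3 same-numbered pairs, and so were those of Cxcr4 and Cxcr5. Ccr8 was 1.77-fold higher by group means, Ccr4 1.32-fold, Cxcr4 1.34-fold and Cxcr5 1.55-fold. Cxcr3, the receptor of the interferon-induced chemokines, was lower in each pair, at 0.915 times the vehicle mean. Ccr7, Ccr2 and Cxcr6 differed more between replicates than between treatments. Of the 8 tested receptors, 0 passed the test without the block, where 0.394% of all tested genes passed (0.345% higher and 0.0492% lower), and 3 had an unadjusted p under 0.05 (Ccr4, Ccr8 and Cxcr4), as did 14% of all tested genes. With the replicate block Ccr8 and Ccr4 rose and no receptor fell, so that 2 of 8 passed where 10.5% of all tested genes passed (4.09% higher and 6.41% lower), and 5 had an unadjusted p under 0.05, as did 29.8% of all tested genes. The balance of blocked calls over all genes turned with the scaling, with 498 higher and 781 lower as deposited and 519 higher and 478 lower after quantile normalization. The groups did not overlap for 4 receptors that were higher and 1 that was lower, where 7.27% and 12.1% of tested genes separate in those directions and 19.4% in either. Being higher in every pair was found for 20.7% of tested genes and being lower in every pair for 31.6%. The median log2 difference was 0.26 over the 8 tested receptors and -0.03 over all tested genes. Cxcr5 is among the receptors higher without overlap and higher in every pair, and in the median. It met the filter through the agonist libraries, with 1 vehicle library at 1 FPKM or more, so its place in these counts was favoured by the filter.

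**Figure D1:**
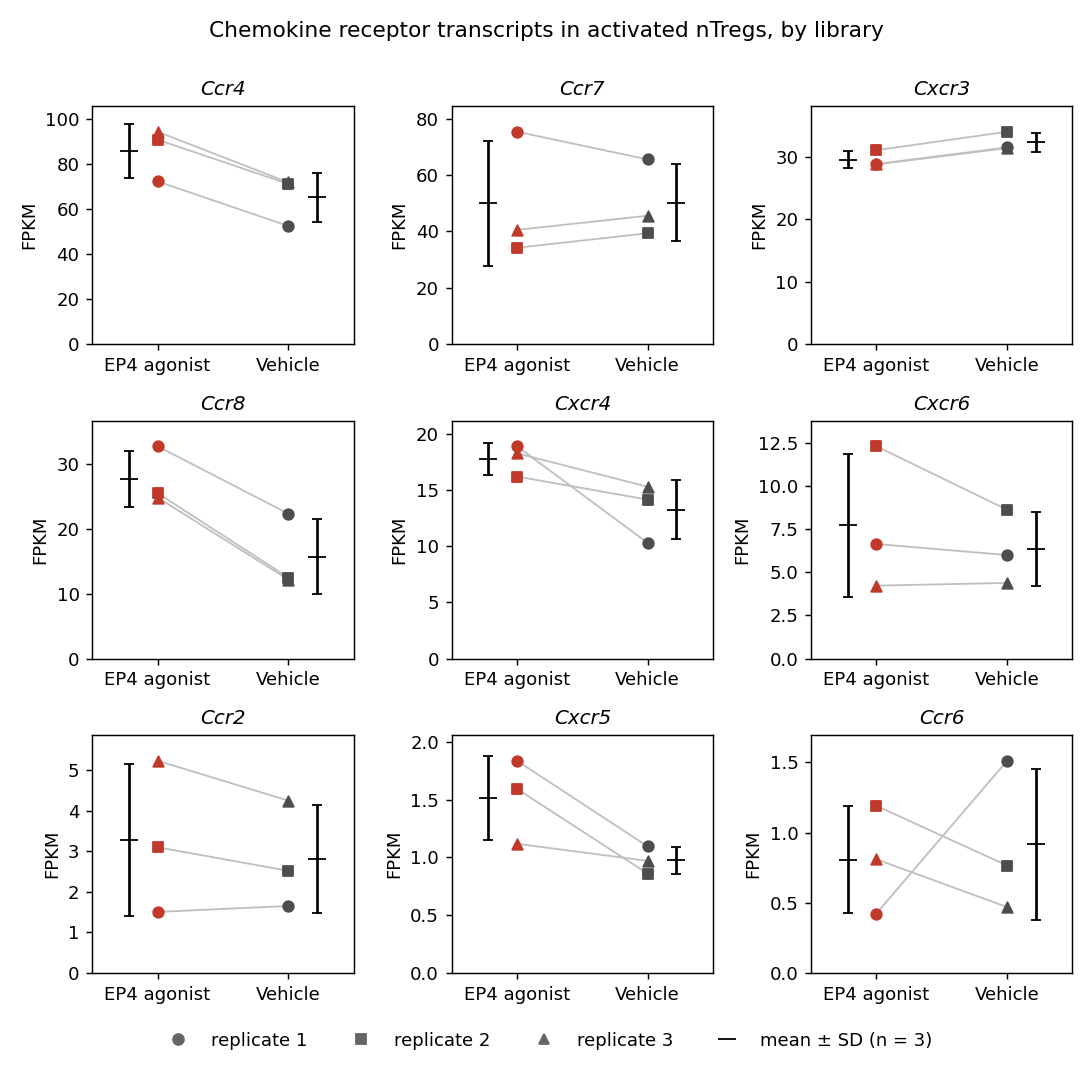
FPKM of each receptor (vertical axes start at 0 and differ between panels) in the 3 EP4 agonist and 3 vehicle libraries. Symbols mark the replicate number, grey lines join same-numbered libraries, and black bars give the mean ± SD of 3 libraries. The lines of Ccr4, Ccr8, Cxcr4 and Cxcr5 all run higher on the agonist side, those of Cxcr3 run lower, and those of Ccr7, Ccr2 and Cxcr6 lie apart by replicate.

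Ccr8 (ENSMUSG00000042262.4, mm10 chr9:120092133-120094906, plus strand), the receptor of CCL1 that marks Tregs of tumours and skin, showed the largest difference of the 8 tested receptors. It had 32.7, 25.4 and 24.8 FPKM in agonist replicates 1, 2 and 3, against 22.3, 12.5 and 12.1 FPKM in vehicle replicates 1, 2 and 3. Every agonist library lay above every vehicle library, and replicate 1 was the highest of its group in both. The means were 27.6 ± 4.38 FPKM with the agonist and 15.6 ± 5.77 FPKM with vehicle, and within pairs the FPKM ratio was 1.47, 2.04 and 2.04 for replicates 1, 2 and 3. The estimated log2 difference was 0.83 ± 0.23 (SE) in limma (adjusted p = 0.195), while the block narrowed that error to 0.10 (adjusted p = 0.0218). Over all alternatives its adjusted p ranged from 0.00611 to 0.527. The summed Treg markers were also higher with the agonist without overlap, but the single markers differed. Of these, Tnfrsf18 (737 ± 68.4 and 479 ± 139 FPKM) and Ikzf2 (36.8 ± 5.21 and 29.8 ± 4.29 FPKM) rose with the block. They are 2 of 7 markers, where 4.09% of all tested genes rose with the block. Ctla4 had 380 ± 56.7 and 242 ± 35.5 FPKM, higher without overlap, as were 7.27% of tested genes. It did not pass (limma, adjusted p = 0.156, and 0.0711 with the block). Il2ra, the marker with the highest FPKM, had a log2 difference of 0.003, Foxp3 0.04, Cd3e 0.03 and Cd4 0.18. The part of these markers in the result was not tested. The blocked call of Tnfrsf18 was lost without pair 2 or 3 (limma, adjusted p = 0.148 and 0.144), and that of Ikzf2 without pair 1, 2 or 3 (0.0589, 0.130 and 0.148). Leaving out vehicle replicate 1, the vehicle library with the highest Ccr8, gave a log2 difference of 1.10 and took Ccr8 past the threshold without the block (limma, adjusted p = 0.0230). With the block the call was lost without pair 2 or pair 3 (limma, adjusted p = 0.107 for each) and held without pair 1 (adjusted p = 0.0337).

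Ccr4 (ENSMUSG00000047898.6, mm10 chr9:114490316-114496544, minus strand), the receptor of CCL17 and CCL22, had the highest mean FPKM of the 9 receptors. Its level was 72.1, 90.6 and 94.2 FPKM in agonist replicates 1, 2 and 3, against 52.4, 71.0 and 71.7 FPKM in vehicle replicates 1, 2 and 3. The groups did not overlap, although agonist replicate 1 exceeded vehicle replicate 3 by less than 1 FPKM, and replicate 1 was the lowest of its group in both. The means were 85.6 ± 11.8 FPKM with the agonist and 65.0 ± 10.97 FPKM with vehicle, and the pairs had FPKM ratios of 1.38, 1.28 and 1.31. In limma its log2 difference came to 0.40 ± 0.15 (SE; adjusted p = 0.325), while the block narrowed that error to 0.05 (adjusted p = 0.0196). Over all alternatives its difference lay between 0.25, without vehicle replicate 1, and 0.51, and its adjusted p between 0.00681 and 0.606. With the block the call was lost without pair 1, 2 or 3 (limma, adjusted p = 0.0521, 0.104 and 0.111).

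The sequences before the start sites of Ccr8 and Ccr4, which passed with the block, are shown beside that of Cxcr4, which was higher in every pair but did not pass. Each run gives the 250 bases before the RefSeq start site (GRCm38.p6, the assembly of mm10), 5′ to 3′ on the strand of the gene, with matches to the searched motifs in capitals.
Ccr8, chr9:120091883-120092132, plus strand: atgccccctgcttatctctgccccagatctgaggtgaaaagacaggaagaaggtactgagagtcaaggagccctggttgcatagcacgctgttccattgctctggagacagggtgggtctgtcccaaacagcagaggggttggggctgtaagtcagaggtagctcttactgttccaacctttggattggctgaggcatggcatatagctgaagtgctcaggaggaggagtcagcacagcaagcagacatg
Ccr4, chr9:114496545-114496794, minus strand: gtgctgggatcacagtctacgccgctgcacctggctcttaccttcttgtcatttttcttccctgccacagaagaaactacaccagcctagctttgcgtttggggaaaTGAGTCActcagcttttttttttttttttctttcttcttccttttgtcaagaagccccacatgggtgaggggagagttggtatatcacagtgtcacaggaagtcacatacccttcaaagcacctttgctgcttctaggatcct
Cxcr4, chr1:128592300-128592549, minus strand: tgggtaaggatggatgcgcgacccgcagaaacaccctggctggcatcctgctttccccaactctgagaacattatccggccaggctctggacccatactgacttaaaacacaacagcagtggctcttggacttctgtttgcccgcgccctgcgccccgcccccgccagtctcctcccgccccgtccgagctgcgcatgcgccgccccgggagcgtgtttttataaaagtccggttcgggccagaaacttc
The motifs searched on both strands were the cyclic AMP response element TGACGTCA, its core TGACG (which the full element contains) and the AP-1 site TGANTCA. RefSeq promoter entries were matched by symbol for 7 of 9 receptors, with a pair of entries for Ccr6. Only the AP-1 motif occurred in the runs shown, once in Ccr4 at 143 bases before the start, and it occurs in 6.75% of 32851 promoters of the same length. Neither the full element nor its core occurred in the 3 runs. The core was found before a Ccr6 start (207 bases) and before Cxcr6 (24 bases), and it occurs in 17.8% of promoters, while the full element occurs in 1.55% and in none of the 7 receptors with an entry. A match is a description of letters and does not show binding.

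Cxcr4 (ENSMUSG00000045382.6, mm10 chr1:128588199-128592293, minus strand) encodes the receptor of CXCL12, which retains lymphocytes in bone marrow. It had 18.9, 16.2 and 18.3 FPKM in agonist replicates 1, 2 and 3, against 10.3, 14.2 and 15.3 FPKM in vehicle replicates 1, 2 and 3. The groups did not overlap, but vehicle replicate 1 stood below the other two vehicle libraries and its pair had an FPKM ratio of 1.84, where pairs 2 and 3 had 1.15 and 1.19. The estimated log2 difference was 0.41 ± 0.14 (SE) in limma (adjusted p = 0.287, and 0.125 with the block). In 22 alternatives, some of which leave the difference unchanged by design, its difference was positive throughout, between 0.21, with the block and without pair 1, and 0.53, and its adjusted p lay between 0.111 and 0.545. Without vehicle replicate 1 it was 0.26.

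Cxcr5 (ENSMUSG00000047880.14, mm10 chr9:44511788-44556391, minus strand), the receptor of follicular T cells and B cells, was near the lower limit of the test. Its values were 1.835, 1.592 and 1.117 FPKM in agonist replicates 1, 2 and 3, against 1.09, 0.859 and 0.970 FPKM in vehicle replicates 1, 2 and 3. The groups were apart by a narrow margin, between agonist replicate 3 and vehicle replicate 1. In limma its log2 difference came to 0.34 ± 0.15 (SE; adjusted p = 0.366, and 0.144 with the block, in a range of 0.0565 to 0.731 over alternatives), and it was 0.57 with a pseudocount of 0.1. Cxcr5 is also a B cell gene, and the B cell marker Cd79b had 3.73 ± 0.760 FPKM with the agonist and 4.90 ± 0.271 FPKM with vehicle, lower in each pair. Cd79a had 0.966 ± 0.284 and 0.754 ± 0.174 FPKM, and the part of these cells in the result was not tested. Bcl6, the factor of follicular cells, was below the filter, at 0.9998 ± 0.243 and 0.593 ± 0.225 FPKM.

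Cxcr3 (ENSMUSG00000050232.6, mm10 chrX:101731535-101734269, minus strand) was the most even of the receptors. It had 28.9, 31.1 and 28.8 FPKM in agonist replicates 1, 2 and 3, against 31.6, 34.1 and 31.5 FPKM in vehicle replicates 1, 2 and 3. All 3 agonist values were below all 3 vehicle values, and the pairs gave nearly the same FPKM ratio, 0.916, 0.913 and 0.917. The estimated log2 difference was -0.12 ± 0.07 (SE) in limma (adjusted p = 0.498, and 0.129 with the block). Its difference was negative in 22 of 22 alternatives, between -0.16 and -0.07 (quantile normalization), and the median of all tested genes was -0.03 on the same scale. Some of these alternatives leave the difference unchanged by design.

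**Figure D2:**
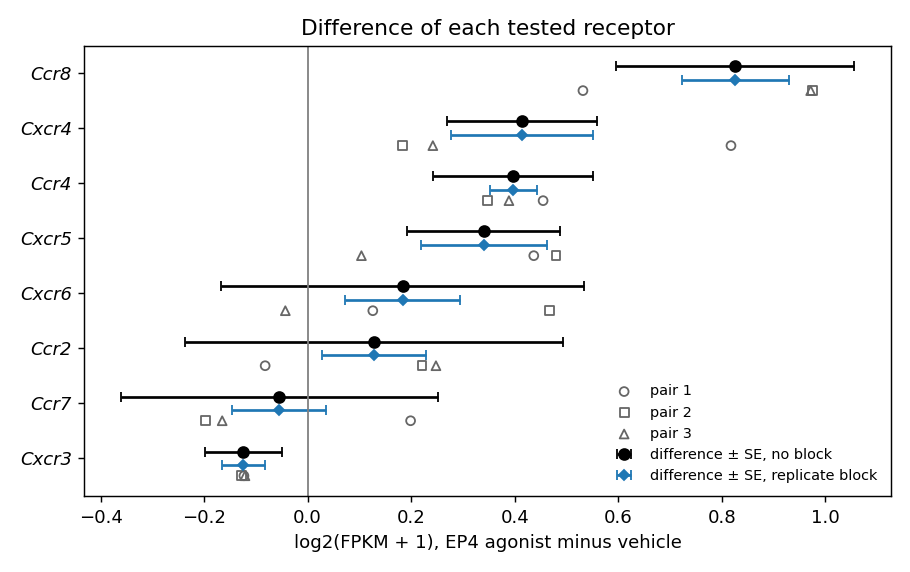
Log2(FPKM + 1) difference, EP4 agonist minus vehicle (horizontal axis), for the 8 tested receptors, ordered by size. Black circles and bars give the difference ± standard error from the fit without a block, blue diamonds the same difference ± standard error with the replicate block, and open symbols the 3 same-numbered pairs. Standard errors with the block are smaller for all 8 receptors, least so for Cxcr4, whose pair 1 (0.82) stands apart from pairs 2 and 3 (0.18 and 0.24).

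Ccr7 (ENSMUSG00000037944.8, mm10 chr11:99144196-99155077, minus strand), the lymph node homing receptor, had nearly equal group means, 50.03 ± 22.2 FPKM with the agonist and 50.1 ± 13.7 FPKM with vehicle. It had 75.4, 34.2 and 40.5 FPKM in agonist replicates 1, 2 and 3, against 65.6, 39.3 and 45.6 FPKM in vehicle replicates 1, 2 and 3. Replicate 1 was by far the highest library of each group, and pair 1 differed upward (FPKM ratio 1.15) while pairs 2 and 3 differed downward (0.869 and 0.890). In limma its log2 difference came to -0.05 ± 0.31 (SE; adjusted p = 0.959, and 0.733 with the block), and its sign turned in 7 of 22 alternatives.

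Ccr2 (ENSMUSG00000049103.13, mm10 chr9:124101950-124113557, plus strand), the receptor of CCL2, had 1.504, 3.10 and 5.23 FPKM in agonist replicates 1, 2 and 3, against 1.65, 2.52 and 4.25 FPKM in vehicle replicates 1, 2 and 3. Same-numbered libraries were close to each other and the 3 numbers were far apart, with pair means that differed by 2.22-fold between the highest and lowest pair on the FPKM + 1 scale. The estimated log2 difference was 0.13 ± 0.37 (SE) in limma (adjusted p = 0.913, and 0.452 with the block). Ccr2 is also a monocyte gene, and of 6 monocyte and macrophage markers Lyz2 reached 0.616 FPKM, Itgam 0.202, Cd14 0.111, Adgre1 0.0402, Csf1r 0.0306 and Fcgr1 0.0179 FPKM in their highest library. Itgam had the same order of replicates as Ccr2, with 0.0283, 0.103 and 0.202 FPKM in agonist replicates 1, 2 and 3, against 0.0832, 0.174 and 0.195 FPKM in vehicle replicates 1, 2 and 3. The other monocyte and macrophage markers did not have this order in both groups. Lyz2 was highest in replicate 2 of each group, and Adgre1 had 0.0364, 0.0143 and 0.0105 FPKM in agonist replicates 1, 2 and 3. The part of these cells in the level of Ccr2 was not tested.

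Cxcr6 (ENSMUSG00000048521.7, mm10 chr9:123806477-123811754, plus strand), the receptor of membrane-bound CXCL16, had 6.64, 12.3 and 4.23 FPKM in agonist replicates 1, 2 and 3, against 6.00, 8.63 and 4.38 FPKM in vehicle replicates 1, 2 and 3. Replicate 2 was the highest and replicate 3 the lowest in both groups, and the pair means differed by 2.13-fold on the FPKM + 1 scale. Of the NK and CD8 markers, Klrd1 and Eomes had this order in both groups, and Ncr1, Klrb1c, Cd8a and Cd8b1 did not. Klrd1 had 1.18, 3.76 and 0.613 FPKM in agonist replicates 1, 2 and 3, against 0.516, 1.33 and 0.392 FPKM with vehicle. The part of such cells in the level of Cxcr6 was not tested. In limma the log2 difference of Cxcr6 came to 0.18 ± 0.35 (SE; adjusted p = 0.862, and 0.336 with the block). Cxcr6 lies inside Fyco1, which is on the opposite strand at 3.603 ± 0.329 FPKM with the agonist and 3.08 ± 0.393 FPKM with vehicle, and the strand setting of the authors' processing is not given in the sources used here.

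Ccr6 (ENSMUSG00000040899.13, mm10 chr17:8236043-8257127, plus strand), the receptor of CCL20 on mucosal and type 17 cells, was not tested. Its reference row gave 0.423, 1.19 and 0.810 FPKM in agonist replicates 1, 2 and 3, against 1.51, 0.766 and 0.470 FPKM in vehicle replicates 1, 2 and 3, and the groups overlapped. Each table also holds loci assembled from the reads of its own library, which describe the same receptors a second time. For Ccr7, Ccr8, Cxcr3, Cxcr4 and Cxcr6 the assembled locus and the reference row had the same FPKM in all 6 libraries, to within 0.001. For Ccr4 the assembled locus was 1.0843 to 1.1231 times the reference row in agonist libraries and 1.0052 to 1.0548 times in vehicle libraries. The log2 difference of Ccr4 was thus 0.50 with assembled loci, against 0.40 with reference rows. For Ccr2 the assembled locus was 1.25 to 1.48 times the reference row. For Ccr6 the ratio ran from 0.962 to 5.87, and the assembled loci gave 2.48, 1.15 and 1.31 FPKM with the agonist and 3.59, 0.998 and 1.28 FPKM with vehicle. Agonist replicate 1 was thus the lowest library for Ccr6 by its reference row and the second highest by its assembled locus. The mean coverage of Ccr6 was 0.539 to 1.78 reads per base, against at least 4.35 for each other receptor. GENCODE M21 lists 9 transcripts for Ccr6 and a single transcript for each of Ccr7, Ccr8 and Cxcr3. No order of libraries can be read for Ccr6 from these values.

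**Figure D3:**
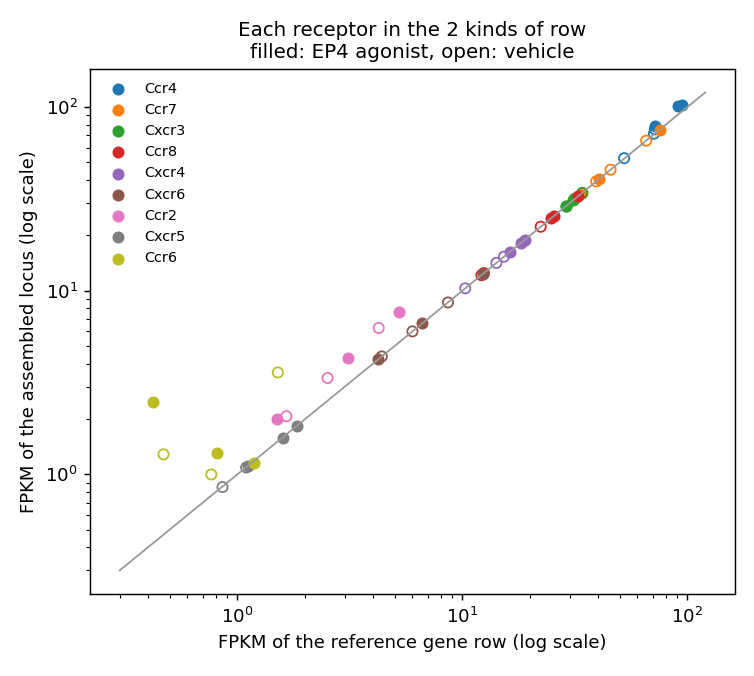
FPKM of each receptor in its reference gene row (horizontal axis, log scale) and in the loci assembled from the same library over it (vertical axis, log scale). Filled points are EP4 agonist libraries, open points are vehicle libraries, colours mark the receptor, and the grey line marks equal values. Most receptors lie on the line, Ccr2 lies 1.25 to 1.48 times above it, and Ccr6 scatters up to 5.87 times above it.

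Levels per length can be set side by side between genes in FPKM. By the mean over 6 libraries the order was Ccr4 (75.3 FPKM), Ccr7 (50.1), Cxcr3 (31.0), Ccr8 (21.6), Cxcr4 (15.5), Cxcr6 (7.03), Ccr2 (3.04), Cxcr5 (1.24) and Ccr6 (0.862). Ccr4 was above 92.8% of tested genes by its mean FPKM, Cxcr3 above 80.2%, Ccr8 above 72.0% and Cxcr5 above 3.68%. Of the 8 neighbouring pairs in this order, only Ccr7 and Cxcr3 had ranges over the 6 libraries that did not overlap. Cxcr4 was above Cxcr6 in each of 6 libraries, although their ranges overlap. Ccr4 was above Ccr7 in 4 of 6 libraries, and the exceptions were replicate 1 of both groups. Ccr8 and Cxcr4 traded places, since Ccr8 was the higher of both in the 3 agonist libraries and in vehicle replicate 1, and Cxcr4 in vehicle replicates 2 and 3.

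The summed FPKM of the 9 receptors was 238, 216 and 218 in agonist replicates 1, 2 and 3, against 192, 184 and 186 in vehicle replicates 1, 2 and 3, without overlap. Ccr4, Ccr7 and Cxcr3 together held 72.3 to 75.0% of this sum with the agonist and 77.7 to 79.9% with vehicle. Ccr8 held 13.7, 11.8 and 11.4% in agonist replicates 1, 2 and 3, against 11.6, 6.78 and 6.52% in vehicle replicates 1, 2 and 3. The share of Ccr8 in vehicle replicate 1 was thus within the agonist range, whereas its FPKM was not. Cxcr3 held 12.1 to 14.4% with the agonist and 16.4 to 18.5% with vehicle. The ratio of Ccr8 to Cxcr3 was 1.13, 0.818 and 0.859 in agonist libraries and 0.706, 0.365 and 0.386 in vehicle libraries. The sum and the shares were chosen after the values were known and were not tested.

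**Figure D4:**
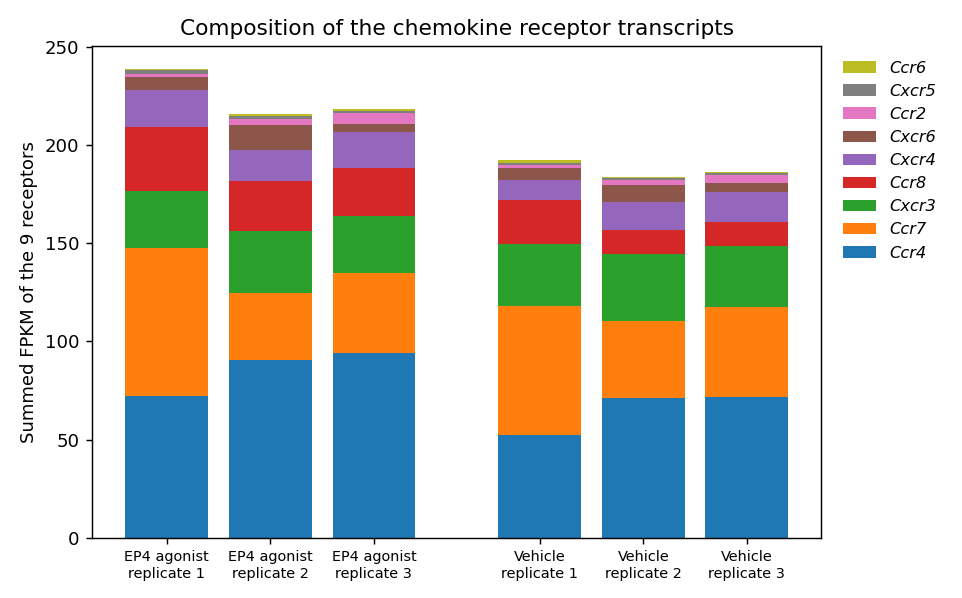
Summed FPKM of the 9 receptors (vertical axis, from 0) in each of the 3 EP4 agonist and 3 vehicle libraries, split by receptor. The agonist columns reach 216 to 238 FPKM and the vehicle columns 184 to 192 FPKM. Replicate 1 of both groups holds more Ccr7 and less Ccr4 than the other replicates.

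The receptors differed in how far apart their pair means lay, which is not the part of their spread that followed the replicate number. For Cxcr3 the SD of the log2 pair means was 0.062 and that of the pair differences 0.003. For Ccr2 these were 0.575 and 0.183. On the FPKM + 1 scale the highest and lowest pair means differed by 2.22-fold for Ccr2, 2.13-fold for Cxcr6, 1.89-fold for Ccr7, 1.52-fold for Ccr8, 1.33-fold for Ccr4, 1.19-fold for Cxcr5, 1.18-fold for Cxcr4 and 1.08-fold for Cxcr3. Replicate 1 was high for Ccr7 and Ccr8 and low for Ccr2 and Ccr4 in both groups. The labels do not say what the number stands for.

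Genes with the most similar pattern over the 6 libraries were read from Pearson correlations of log2(FPKM + 1) with all other tested genes, as a description that shares the 6 libraries and their replicate numbers. For Ccr8 these were Tnfrsf18, which encodes the Treg receptor GITR (r = 0.998), and Dock9 (r = 0.998), and 175 genes had an r above 0.95. For Ccr4 they were Cux1 (r = 0.991) and Tigit, an inhibitory receptor gene (r = 0.989). For Ccr7 they were Il2rg, the common cytokine receptor chain (r = 0.996), and Serpini1 (r = 0.994). Those of Cxcr3 were Fastkd3 and Ankle1, those of Cxcr4 Zbtb26 and Smndc1, those of Cxcr5 Armcx1 and 4932438A13Rik, those of Cxcr6 Gpi1 and Hemk1, and those of Ccr2 Mir8108 and Tm9sf3, with r between 0.985 and 0.996. With 6 libraries and 12186 genes, correlations of this size occur for every receptor tested, with 13 to 175 genes above 0.95.

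The nearest tested genes on the chromosome were examined beside the receptors. Csrnp1, 114.9 kb from Ccr8, had 57.3 ± 8.60 FPKM with the agonist and 39.7 ± 10.8 FPKM with vehicle (limma adjusted p 0.293, or 0.0235 when blocked), while Slc25a38 on the other side, at 15.5 kb, had 9.03 ± 0.554 and 8.49 ± 1.41 FPKM (limma adjusted p 0.790, or 0.474 when blocked). Glb1 and Cnot10 beside Ccr4 had log2 differences of 0.11 and -0.10 (limma, adjusted p = 0.611 and 0.636, and 0.205 and 0.248 with the block). Igfbp4, which encodes a binding protein of insulin-like growth factors and lies 89.8 kb from Ccr7, fell, to 8.50 ± 0.499 FPKM with the agonist, against 21.7 ± 4.26 FPKM with vehicle (limma, adjusted p = 0.0200), while Ccr7 itself had a log2 difference of -0.05. Igfbp4 lost the threshold without any 1 library other than vehicle replicate 1 (adjusted p = 0.0574 to 0.105 in limma), and the blocked call of Csrnp1 was lost without pair 2 or 3 (adjusted p = 0.114 and 0.122).

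Among 13 other chemokine receptors and scavenging receptors, only Ccrl2 passed the filter on low FPKM. It did not pass the test without the block, and with the block it rose. Ccrl2, an atypical receptor that presents chemerin, had 2.70, 2.02 and 2.80 FPKM in agonist replicates 1, 2 and 3, against 1.31, 1.14 and 1.30 FPKM in vehicle replicates 1, 2 and 3. The groups were well apart, with a log2 difference of 0.63 ± 0.13 (SE; limma adjusted p 0.123, or 0.0283 when blocked). The blocked call of Ccrl2 was lost without any 1 pair (limma, adjusted p = 0.0818 to 0.137). The other 12 stayed below 0.877 FPKM in every library, among them Ccr9, Ccr10 and Cx3cr1.

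Transcripts of the ligands were at most 1.19 FPKM in any of the sorted libraries. Of 16 chemokines that bind the 9 receptors, 8 were listed at 0 in every library, including Ccl19, Ccl21a, Cxcl12 and Cxcl13. Only Ccl20, the ligand of CCR6, passed the filter, with 0.719 ± 0.285 FPKM with the agonist and 0.839 ± 0.378 FPKM with vehicle (limma adjusted p 0.892, or 0.728 when blocked). The highest single value was that of Ccl22, a ligand of CCR4.

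Of 9 symbols for kinases and arrestins that switch off activated receptors, 7 are in the tables and 6 were tested. In limma 0 of 6 passed without or with the block, where 0.394% and 10.5% of all tested genes passed. An unadjusted limma p under 0.05 was found for 2 and 3 (14% and 29.8% of all tested genes). The median log2 difference was -0.18, against -0.03 over all tested genes. Adrbk1, the older symbol of the receptor kinase gene Grk2, had the highest level, with 144, 139 and 142 FPKM in agonist replicates 1, 2 and 3, against 159, 169 and 162 FPKM in vehicle replicates 1, 2 and 3. The groups did not overlap, as for 12.1% of tested genes in this direction. The log2 difference was -0.20 ± 0.07 (SE; limma adjusted p 0.294, or 0.0696 when blocked). After quantile normalization it was -0.15 (limma adjusted p 0.477, or 0.210 when blocked). Grk6 had 88.6 ± 5.88 and 101 ± 6.14 FPKM, and Arrb2, which encodes beta-arrestin 2, 71.9 ± 4.51 and 83.9 ± 4.47 FPKM. Each was lower with the agonist in 3 of 3 pairs, as were 31.6% of all tested genes.

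The transduction of chemokine signals was read from 27 genes of inhibitory G protein signalling and motility, 25 of them tested. Without the block Rgs2 rose and 0 fell, 1 of 25 where 0.394% of all tested genes passed. With the block Rgs2 and Rgs1 rose and 0 fell, 2 of 25, a share below the 10.5% of all tested genes that passed. In limma 2 of 25 had an unadjusted p under 0.05 without the block and 9 with it (14% and 29.8% of all tested genes). The median log2 difference of the list was -0.01. Rgs2, which speeds the switching off of G proteins, had 9.94, 9.45 and 8.203 FPKM in agonist replicates 1, 2 and 3, against 2.95, 2.01 and 1.83 FPKM in vehicle replicates 1, 2 and 3, a log2 difference of 1.66 (limma, adjusted p = 0.0154). The call was lost without any 1 library other than vehicle replicate 1 (limma, adjusted p = 0.0503 to 0.0951), with differences of 1.56 to 1.73. Which G proteins the product of Rgs2 acts on in these cells was not tested. Rgs1, a related brake that acts on chemokine receptor signals in lymphocytes, had 42.9 ± 6.44 FPKM with the agonist and 32.9 ± 5.31 FPKM with vehicle (limma adjusted p 0.330, or 0.0218 when blocked). The blocked call of Rgs1 was lost without pair 1, 2 or 3 (limma, adjusted p = 0.0541, 0.107 and 0.127), and with coverage in place of FPKM its difference was 0.14, against 0.37 with FPKM. Gnai2, the main inhibitory G protein of lymphocytes, had 336 ± 19.1 and 376 ± 28.9 FPKM (limma adjusted p 0.490, or 0.125 when blocked).

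Of 14 transcription factors of T cells listed for links to chemokine receptors, 13 were tested. The links themselves were not tested. In limma 0 passed without the block, where 5 had an unadjusted p under 0.05, as did 14% of all tested genes. With the block 4 rose and 2 fell, 6 of 13 where 10.5% of all tested genes passed (4.09% higher and 6.41% lower). In limma 8 had an unadjusted p under 0.05 with the block, as did 29.8% of all tested genes. The list was chosen with earlier results of these data known and the block from these data, so these counts do not test the list. The median log2 difference was 0.01. Gata3, the type 2 factor associated with CCR4 and CCR8, had 65.9, 55.7 and 49.4 FPKM in agonist replicates 1, 2 and 3, against 45.8, 40.4 and 39.3 FPKM in vehicle replicates 1, 2 and 3, without overlap (limma, adjusted p = 0.198, and 0.0219 with the block). Runx3 had 38.5 ± 3.595 and 29.9 ± 1.68 FPKM, Maf 28.5 ± 4.65 and 23.9 ± 3.04 FPKM, and Stat4 24.04 ± 12.7 and 8.24 ± 1.34 FPKM, and these rose with the block (limma, adjusted p = 0.0227, 0.0462 and 0.0241). Agonist replicate 1 had 38.7 FPKM of Stat4, against 16.5 and 16.9 FPKM in agonist replicates 2 and 3. Batf and Irf4, factors of effector Treg differentiation, fell with the block, with 48.0 ± 5.87 and 22.1 ± 1.31 FPKM with the agonist and 65.7 ± 9.50 and 33.3 ± 5.803 FPKM with vehicle (limma, adjusted p = 0.0179 and 0.0253, and 0.232 and 0.156 without the block). With the block, each of these 6 calls was lost without pair 2 or 3 (limma, adjusted p from 0.0940 for Gata3 to 0.216 for Maf), and those of Gata3, Maf and Runx3 also without pair 1 (adjusted p = 0.0570, 0.0678 and 0.0614). The log2 difference of Maf was 0.24, and 0.12 without agonist replicate 3. Tbx21, the factor associated with CXCR3, had 5.69 ± 0.546 and 6.43 ± 1.46 FPKM (limma adjusted p 0.747, or 0.364 when blocked), and Klf2, associated with lymph node homing, 42.4 ± 9.70 and 51.4 ± 11.01 FPKM (limma adjusted p 0.582, or 0.0779 when blocked).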

How the data were processed

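RNA of sorted nTregs was purified on columns and made into stranded, poly(A)-based libraries, per the labels' protocols. Trim Galore, HISAT2 and the mm10 build are named in the submitters' processing notes. Which program computed the abundances, from which annotation and with which strand setting, is not given in the sources used here. The authors deposited 1 table per library with coverage and FPKM for each gene, per the file headers, and FPKM was used as deposited. The TPM column sums to 1901346 or more per library, above what that unit allows, and was not used. Fragment counts were not recovered, so no counting interval is given. The aligned bases of a library come from the modal ratio of the deposited coverage (signal) to FPKM.

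Rows that share an identifier were summed. Log2(FPKM + 1) was tested with limma 3.58.1 (R 4.3.3, with statmod 1.5.0 for its robust variances and an intensity trend) where 3 or more libraries reached 1 FPKM, over all 6 libraries without covariates, and the script was tested on simulated data. Summaries used pandas 2.3.3 and numpy 2.4.6 under Python 3.11.15, and matplotlib 3.10.9 drew the plots. Deviations from group means correlated at 0.512, 0.404 and 0.321 in the pairs numbered 1, 2 and 3 and between -0.353 and 0.002 in the 6 other pairs, and libraries with equal numbers were therefore treated as pairs. Only these correlations support the pairing, since the labels do not state it, so the block was not chosen independently of these data. Deviations within a group cancel out, so positive correlations in same-numbered pairs push those of the other pairs down on balance. The genes named are the 9 receptors, the members of the lists that passed with or without the block or were highest, the most similar genes and the chromosomal neighbours. Members of lists named beyond that rule (Gnai2, Grk6, Arrb2, Bcl6, Tbx21, Klf2, Ccl22 and markers) were chosen after their values were seen. Some list members and neighbours are not reported here and are left out of the list counts. The receptors and lists were chosen with earlier results of these data known.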

Additional observations from a re-analysis of the deposited data

How the results depend on the processing

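Under 22 alternatives (21 for genes that drop out at an FPKM of at least 5), Ccr4, Ccr8, Cxcr3, Cxcr4 and Cxcr5 kept the sign of their difference in each one run. Alternatives that change only the block, the filter or the variance model leave a difference as it is and could not turn its sign. Nor could assembled loci for Ccr8, Cxcr3, Cxcr4 and Cxcr5, whose values were the same in those fits. The number of genes called, 48, became 1279 with the replicate block, 997 (519 higher and 478 lower) with the block and quantile normalization, 2 without a filter on low FPKM, 75 with upper quartile scaling and 89 with coverage, where 0 receptors passed without the block. Among alternatives chosen after seeing the data, 2010, 1279 and 1228 genes passed with the block and coverage, assembled loci or a pseudocount of 0.1, and 2 receptors passed in each of these, as they did with the block alone or with quantile normalization. The assembled loci replaced values of receptors only, and among tested genes they changed only Ccr2 and Ccr4. Their count of 1279 and their call of Ccr8 could therefore hardly differ from those of the block alone. Leaving out 1 library gave 0 (without agonist replicate 2, vehicle replicate 2 or vehicle replicate 3, where limma had 1606, 1033 and 1115 genes with an unadjusted p under 0.05) to 133 genes (without vehicle replicate 1) and 0 to 1 receptors. With the replicate block and 1 pair left out it gave 0 to 241 genes, with 2557 unadjusted where it was 0, and 0 to 1 receptors.

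Ccr7 reversed to 0.005 with quantile normalization, with and without the block, and to 0.17, 0.05 and 0.15 without agonist replicate 2, agonist replicate 3 or vehicle replicate 1, and with the block to 0.0169 and 0.0007 without pair 2 or 3, in a range of -0.39 to 0.17 over single libraries left out. Ccr2 reversed to -0.19 and -0.10 without agonist replicate 3 or vehicle replicate 1 (highest 0.47), and Cxcr6 to -0.17 and -0.02 without agonist replicate 2 or vehicle replicate 3 (highest 0.50). Ccl20 reversed to 0.0068 and 0.0028 without vehicle replicate 1 or 2 (lowest -0.27) and to 0.0583 with the block and without pair 2. The cause was not tested. Rgs2 and Igfbp4 passed in 14 of 22 alternatives each, and lost the threshold without a filter (limma, adjusted p = 0.119 and 0.138), without any library other than vehicle replicate 1, and with the block without pair 2 or 3. With the block, the adjusted p of Ccrl2, Csrnp1, Gata3, Maf, Runx3, Stat4, Batf, Irf4, Rgs1, Tnfrsf18, Ikzf2 and Hba-a1 exceeded 0.05 in at least 1 alternative, with highest values of 0.104 (Batf) to 0.216 (Maf) when a pair was left out and 0.254 for Rgs1 with coverage, where its difference was 0.14. The block changed no other receptor's call. Coverage under 2 reads per base limits what can be said of Ccr6.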
